A study of Mus musculus with 18 samples.

Results

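The 10 genes described here prepare peptides for presentation on MHC class I molecules. They are Nlrc5, Tap1, Tap2, Tapbp, Psmb8, Psmb9, Psmb10, Psme1, Psme2 and Erap1, and were taken by symbol from the 43280 genes of the count files. All 10 had reads in every library and passed the filter on low counts. RNA was sequenced from 18 libraries of mouse T-lineage cells sorted by CD45, the T-cell receptor alpha-beta chains, CD8 and CD4 after a dump gate against NK1.1, CD11c and the gamma-delta receptor. The iRTE group (n = 5) held CD8+ T cells differentiated from Pmel iPSC, an induced pluripotent stem cell source. The Artificial CD8 group (n = 5) held CD8+ T cells differentiated from the same source on OP9-DL1, a stromal line that displays a Notch ligand. The CD4+CD8+ group (n = 3) held double-positive cells, also from Pmel iPSC on OP9-DL1. The splenic CD8 group (n = 5) held naive CD8+ T cells taken ex vivo from the spleen of transgenic mice. The labels do not spell out iRTE. The design text places 1 set of CD8+ T cells in a 3D thymic culture, whereas the growth protocol of every iRTE library names OP9-DL1. No treatment was given to any group. The library descriptions call the splenic cells pmel naive T cells, and the labels give the mice no age. They do not state whether libraries of a group are separate cultures or animals, so every p-value reflects library-to-library spread, which may be technical.

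Peptides shown on class I molecules are mostly cut from cytosolic proteins by the proteasome, a barrel (the 20S core) that carries caps. Interferon-inducible catalytic subunits replace the constitutive ones to form the immunoproteasome, and the PA28 cap (Psme1 and Psme2) opens the barrel and changes the pieces it releases. The transporter made of Tap1 and Tap2 carries peptides into the endoplasmic reticulum, where Erap1 trims their ends and tapasin (Tapbp) holds the empty class I molecule at the transporter. Nlrc5 is a transactivator of class I genes and of several genes of this pathway. In T cells the pathway is known as inducible by interferons, and class I levels are known to be low on double-positive thymocytes and to increase as they mature.

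On GRCm38 (GENCODE M21, not the mm9 build of the counts), 5 of the genes lie in the MHC region of chromosome 17. They are Tapbp at chr17:33915899-33929292, Psmb9 at chr17:34181987-34187764, Tap1 at chr17:34187553-34197225, Psmb8 at chr17:34197721-34201454 and Tap2 at chr17:34203527-34216321. Nlrc5 lies at chr8:94434356-94527272 and Psmb10 at chr8:105935735-105938444. Psme1 lies at chr14:55578123-55581529, Psme2 at chr14:55587441-55591113 and Erap1 at chr13:74639568-74693201. The deposited counts are per gene symbol and do not separate exons, introns or UTRs.

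Promoter windows were available for 8 of the 10 genes, from 250 bases before to 50 bases after each start (RefSeq, GRCm38.p6); Nlrc5 and Tap2 had none in the table used. Tap1 and Psmb9 lie head to head on chromosome 17. In GENCODE M21, 212 exon bases belong to both genes, 5.79% of those of Psmb9 and 3.87% of those of Tap1. Between their RefSeq starts lie 225 bases, and this stretch is shown because 2 of the genes share it. It holds 1 CCAAT and 1 TGACG, in capitals, which are the letters of the Y box and of the core of the X2 box known from class I promoters. It is written on the strand of Tap1 at chr17:34187331-34187555.

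Tap1 and Psmb9: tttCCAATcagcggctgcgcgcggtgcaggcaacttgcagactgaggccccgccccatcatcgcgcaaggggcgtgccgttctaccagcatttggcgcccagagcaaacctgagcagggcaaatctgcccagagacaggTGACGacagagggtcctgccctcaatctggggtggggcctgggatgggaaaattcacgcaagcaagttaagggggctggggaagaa

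Searched on both strands, CCAAT was also present in the Tapbp window, so 3 of 8 genes held it, against 37.4% of all 32851 mouse windows. TGACG was also present in the windows of Psme2, so 3 of 8 genes held it, against 20.8% of all windows. In both counts, the single site of the shared stretch counts for Tap1 and again for Psmb9. The interferon regulatory factor repeat (GAAA, any 2 bases, GAAA) was found in 2 of 8 genes, Psme1 and Erap1, against 3.44% of all windows. The STAT motif TTCNNNGAA was found in 1 of 8 genes, Psmb8, against 8.30% of all windows. An NF-kB motif was found in none of the 8, against 4.51% of all windows. These 3 sites are shown because they are the interferon-type matches among the 8 genes, each in capitals on the plus strand of GRCm38.p6 with its flanks, at chr17:34198088-34198117, chr14:55578493-55578522 and chr13:74639839-74639868. A match describes the letters and is no evidence of binding.

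Psmb8: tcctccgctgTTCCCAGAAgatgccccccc
Psme1: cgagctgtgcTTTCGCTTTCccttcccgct
Erap1: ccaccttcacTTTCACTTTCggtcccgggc

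Total counts per library ran from 11691286 to 16533373 in iRTE, from 15953388 to 19305751 in Artificial CD8, from 11747367 to 12208210 in CD4+CD8+ and from 11132768 to 17671852 in splenic CD8. Levels are given in CPM, counts divided by the TMM-scaled library total. Summed over 8 T-cell markers, the libraries had 6779 to 11305 CPM, and Cd8a was at least 456 CPM in all 18. That lowest value was in iRTE 4, where the other iRTE libraries had 1262 to 1385 CPM and Artificial CD8 562 to 644 CPM. Cd8b1 in iRTE 4, at 3304 CPM, was the highest of the 18 libraries. Cd4 was at 0 in all 5 iRTE libraries (below a floor of 3 counts), and had 1.89 to 9.18 CPM in Artificial CD8 and 155 to 263 CPM in CD4+CD8+. The B-cell gene Cd79b had 2.68 to 6.21 CPM in iRTE, 2.28 to 6.75 CPM in Artificial CD8, 4.37 to 5.71 CPM in CD4+CD8+ and 24.6 to 31.5 CPM in splenic CD8. The B-cell genes Ms4a1 and Pax5 were at 0 in all cultured libraries. Summed over the 4 measured red-cell markers, the cultured libraries had at most 0.685 CPM and splenic CD8 162 to 207 CPM. Summed over 6 stromal markers, iRTE had 0.973 to 4.31 CPM, Artificial CD8 17.3 to 26.3 CPM, CD4+CD8+ 1.38 to 41.0 CPM and splenic CD8 2.17 to 3.62 CPM. Of 6 thymic epithelial markers only Epcam was above 1 CPM in any library, at 0.622 to 8.79 CPM in iRTE, 29.6 to 39.3 CPM in Artificial CD8, 15.6 to 19.4 CPM in CD4+CD8+ and 1.62 to 4.16 CPM in splenic CD8. Summed myeloid markers reached at most 16.1 CPM and NK markers at most 3.93 CPM in any library. The part of these cells in the results was not tested. In bulk samples, fewer cells of a type and less RNA per cell cannot be told apart.

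The 10 genes did not share 1 order of group means. Nlrc5, Tap1, Tap2 and Psmb9 were highest in splenic CD8 and lowest in CD4+CD8+, with iRTE above Artificial CD8 between them. The other 6 had their highest mean in iRTE. Of these, Tapbp, Psme1 and Psme2 had splenic CD8 second, Psmb8 and Erap1 had Artificial CD8 second, and Psmb10 had its lowest mean in splenic CD8. The fitted fold between the highest and the lowest group was 13.0 for Nlrc5, 4.99 for Tap1 and 1.48 for Erap1, the first being the widest of the 10 genes and the last the narrowest.

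**Figure D1:**
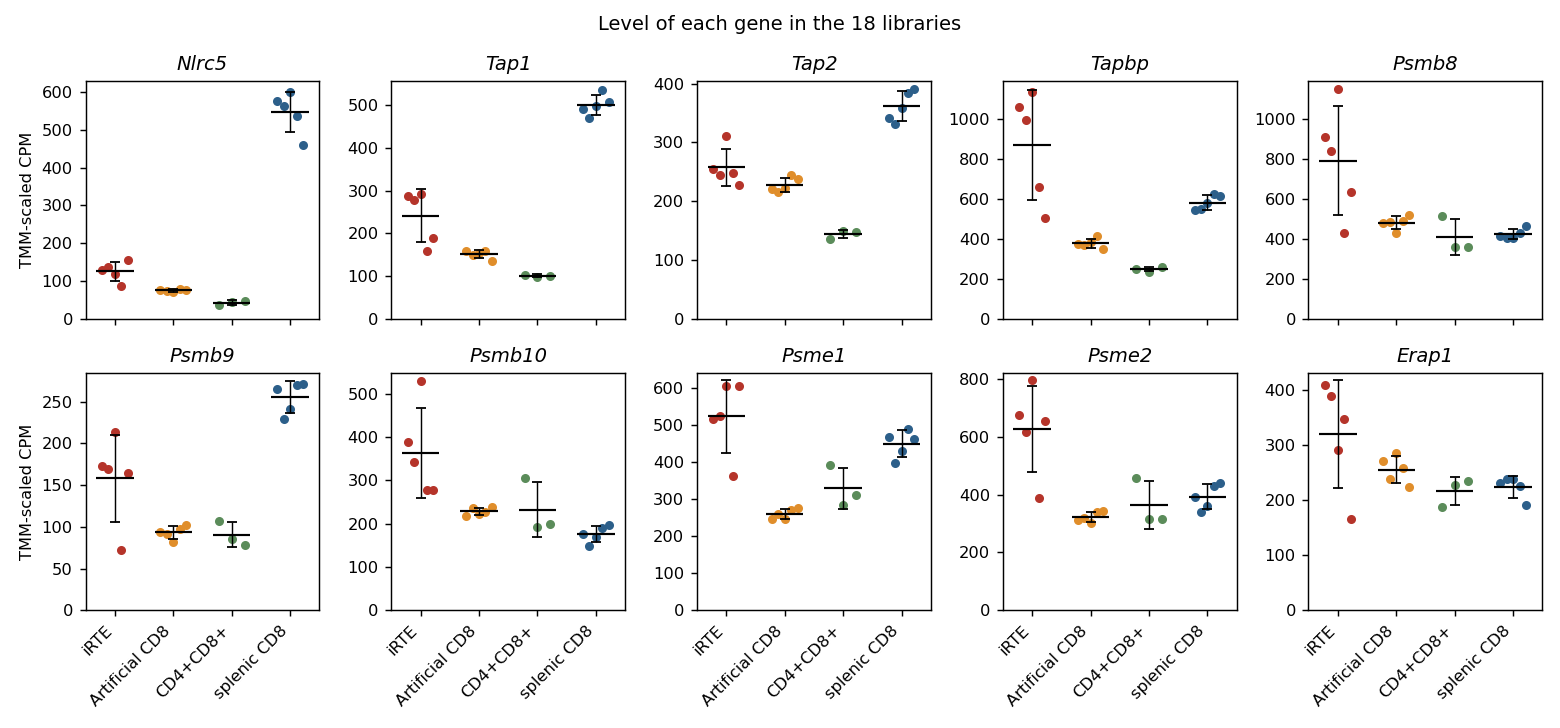
TMM-scaled CPM of the 10 genes in every library (points), by group, with the group mean (bar) and SD (whiskers); each panel has its own linear axis from 0. Nlrc5 reached at least 461 CPM in every splenic CD8 library and at most 154 CPM in any cultured library, whereas Psmb10 had its lowest group mean in splenic CD8.

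Each value below belongs to 1 of 6 pairwise comparisons from a single edgeR fit, and comparisons that name the same group share its libraries. For iRTE against Artificial CD8, 8 of the 10 genes were higher and none was lower at an adjusted p under 0.05 (edgeR quasi-likelihood test, Benjamini-Hochberg over 13922 genes; none was lower at an unadjusted p under 0.05 or by DESeq2 or limma-voom). Across all genes tested, 20.0% were called higher and 18.7% lower in that comparison. The median log2 fold change was 0.73 over the 10 genes and 0.01 over all genes. Every iRTE library lay above every Artificial CD8 library for 6 of the 10, a pattern held by 11.0% of all genes.

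For iRTE against CD4+CD8+, all 10 genes were higher, against 11.8% of all genes called higher and 12.3% lower, and the median log2 fold change was 0.82 against 0.02 over all genes. The number higher was 10 by DESeq2. It was 9 by limma-voom, with libraries scaled by their totals alone and with no low-count filter, Erap1 being the gene lost each time. The libraries did not overlap for 4 of them (8.22% of all genes lay above without overlap): Nlrc5, Tap1, Tap2 and Tapbp. The count rests on the spread shared with the other groups. With only these 2 groups in the fit, 4 of the 10 were called, the same 4 genes, against 8.89% of all genes in either direction.

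For Artificial CD8 against CD4+CD8+, Nlrc5, Tap1, Tap2 and Tapbp were higher and none of the 10 was lower (1 was lower at an unadjusted p under 0.05, and none by DESeq2 or limma-voom), against 6.54% of all genes higher and 8.12% lower. The median log2 fold change was 0.24, against 0.00 over all genes. The same 4 lay above without overlap, as did 14.2% of all genes, and Psme1 lay below without overlap, as did 14.8% of all genes. Without CD4+CD8+ library 2 or 3, 2 of the 10 were called. Over all genes, 1399 of 14597 were called in either direction without library 2, and 1374 of 14596 without library 3.

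Against splenic CD8, iRTE had 5 genes higher and 4 lower, against 29.2% of all genes higher and 29.0% lower, with a median of 0.37 against -0.05 over all genes. The higher genes were Tapbp, Psmb8, Psmb10, Psme2 and Erap1, and the lower genes were Nlrc5, Tap1, Tap2 and Psmb9. Without overlap, Psmb10 lay above (18.6% of all genes) and the 4 lower genes lay below (22.6%).

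Artificial CD8 had none of the 10 higher than splenic CD8 and 6 lower, against 30.3% of all genes higher and 30.2% lower, with a median of -0.64 against -0.03. With RLE scaling the split was 1 higher and 6 lower, as it was by DESeq2 and limma-voom and at an unadjusted p under 0.05, the added gene being Psmb10. With only these 2 groups in the fit, all 10 genes were called, 3 higher and 7 lower, against 76.0% of all genes. Without overlap, Psmb10 lay above (29.9% of all genes) and 6 lay below (31.1%).

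CD4+CD8+ had none of the 10 higher than splenic CD8 and 6 lower, against 28.9% of all genes higher and 27.4% lower, with a median of -0.84 against -0.03 (edgeR; 1 was higher at an unadjusted p under 0.05, and none by DESeq2 or limma-voom). Without overlap, none lay above (30.7% of all genes) and 6 lay below (32.7%). The 6 lower genes were Nlrc5, Tap1, Tap2, Tapbp, Psmb9 and Psme1, as in Artificial CD8.

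Nlrc5, the class I transactivator, had 129.6, 136, 119, 85.7 and 154 CPM in the iRTE libraries, 74.7, 72.3, 70.4, 79.0 and 75.0 CPM in Artificial CD8, 35.5, 44.1 and 47.1 CPM in CD4+CD8+ and 576, 563, 600.1, 536 and 461 CPM in splenic CD8. The 4 groups did not overlap at any point of that order. The group means were 125 ± 25.3 CPM in iRTE, 74.3 ± 3.24 CPM in Artificial CD8, 42.2 ± 6.03 CPM in CD4+CD8+ and 547 ± 53.7 CPM in splenic CD8 (SD, n = 5, 5, 3 and 5).

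All 6 comparisons of Nlrc5 passed the threshold (edgeR). Its log2 fold change was 0.75 ± 0.13 (SE) in iRTE over Artificial CD8, with an adjusted p of 0.000127, and 1.56 ± 0.16 in iRTE over CD4+CD8+, with an adjusted p of 9.4e-07. Artificial CD8 exceeded CD4+CD8+ by 0.81 ± 0.15, with an adjusted p of 0.00152. Relative to splenic CD8 the log2 fold change was -2.13 ± 0.13 in iRTE (4.38-fold lower), -2.88 ± 0.13 in Artificial CD8 (7.37-fold lower) and -3.70 ± 0.17 in CD4+CD8+ (13.0-fold lower). These 3 falls had adjusted p values of 2.3e-10, 4.3e-12 and 8.2e-12. Within iRTE, library 4 was lowest and library 5 highest.

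The level pattern of Nlrc5 was set beside those of the 13921 other genes tested, by the root mean square (RMS) difference of log2 CPM over the 18 libraries after centring each gene on its own mean. Leaving out predicted and clone-named genes, the 5 nearest were Rnf213 at 0.33, Samd9l at 0.34, Flt3l at 0.34, Gimap8 at 0.37 and H2-T24 at 0.37. Rnf213, which encodes a large ubiquitin ligase, averaged 96.0 ± 12.4 CPM in iRTE, 51.5 ± 14.2 CPM in Artificial CD8, 39.8 ± 11.6 CPM in CD4+CD8+ and 379 ± 26.3 CPM in splenic CD8. Among the other 9 genes of the pathway, Tap1 came nearest, at rank 78 with an RMS difference of 0.58. Psmb9 followed at rank 568 with 0.81 and Tap2 at rank 1404 with 0.97, while Psmb10 was farthest at rank 8769 with 1.59. These ranks describe the pattern over libraries that share 4 groups. The difference was not scaled, so the rank depends on the size of the steps as well as on their order. Tap2 had the group order of Nlrc5 with smaller steps.

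**Figure D2:**
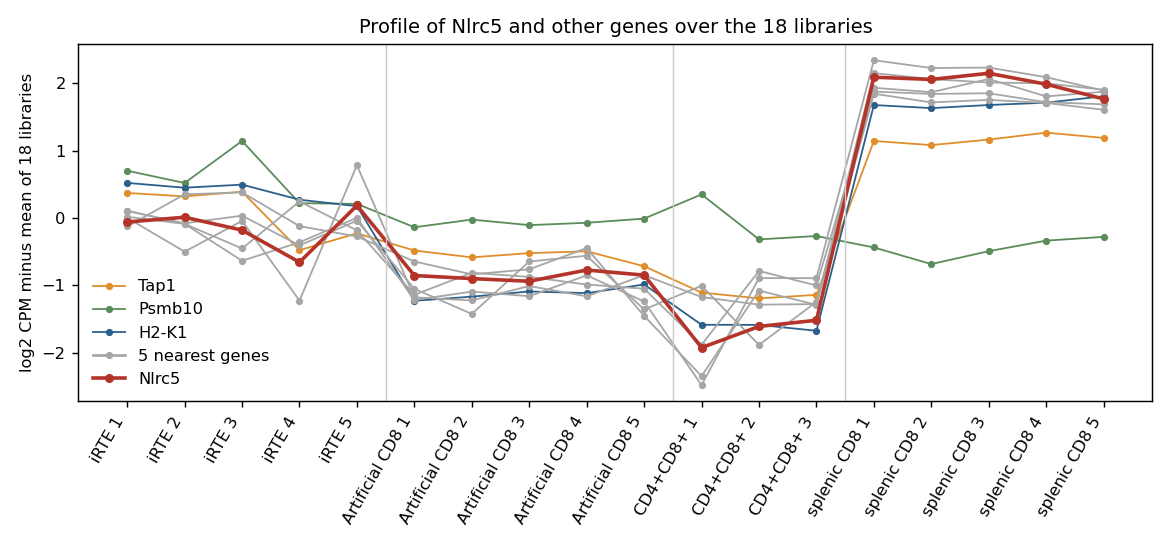
Log2 CPM of Nlrc5 (red), its 5 nearest genes (grey), Tap1, Psmb10 and H2-K1 in each library, minus the gene's mean over the 18 libraries. Nlrc5 and its nearest genes step up in splenic CD8, and Nlrc5 is lowest in CD4+CD8+. For all 5 nearest genes, part of the CD4+CD8+ libraries lie level with or above part of the Artificial CD8 range. These are libraries 2 and 3 for Samd9l, Gimap8 and H2-T24, libraries 1 and 3 for Rnf213 and library 1 for Flt3l. Tap1 has the group order of Nlrc5 with smaller steps. Within iRTE the 2 genes part: Nlrc5 is highest in library 5 (0.19), whereas Tap1 is at -0.23 there and at 0.32 to 0.39 in libraries 1 to 3. Psmb10 has its lowest group mean in splenic CD8, where library 5 lies above CD4+CD8+ library 2.

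H2-K1, a classical class I heavy chain, was at rank 10 with an RMS difference of 0.41 from Nlrc5, and averaged 2009 ± 206 CPM in iRTE, 707 ± 44.8 CPM in Artificial CD8, 500.3 ± 17.5 CPM in CD4+CD8+ and 4995 ± 232 CPM in splenic CD8. H2-D1 had a log2 fold change of 1.72 ± 0.097 in iRTE over Artificial CD8 and of -0.42 ± 0.095 in iRTE over splenic CD8, whereas the light chain B2m had 1.18 ± 0.17 and, short of the threshold, 0.31 ± 0.16 (adjusted p = 0.109, edgeR).

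Tap1, an ATP-driven subunit of the peptide transporter, had 288, 278, 291, 159 and 189.7 CPM in iRTE, 159, 148, 155, 158 and 135 CPM in Artificial CD8, 103, 97.0 and 101 CPM in CD4+CD8+ and 491, 471, 498, 535 and 507 CPM in splenic CD8. The groups did not overlap, although iRTE library 4 stood within 1 CPM of the highest Artificial CD8 library. The log2 fold change was 0.68 ± 0.14 in iRTE over Artificial CD8 (adjusted p = 0.000612, edgeR) and 1.27 ± 0.16 in iRTE over CD4+CD8+ (adjusted p = 1.7e-05). Artificial CD8 exceeded CD4+CD8+ by 0.59 ± 0.16 (adjusted p = 0.0175), a call lost without CD4+CD8+ library 2 (adjusted p = 0.0645) or 3 (adjusted p = 0.0559). Relative to splenic CD8, Tap1 was lower by 2.08-fold in iRTE, 3.32-fold in Artificial CD8 and 4.99-fold in CD4+CD8+, all with adjusted p values of at most 3.0e-06.

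Tap2, the partner of Tap1 in the transporter, had 255, 245, 311, 248 and 228 CPM in iRTE, 221, 216, 223, 244 and 237 CPM in Artificial CD8, 136, 149 and 147 CPM in CD4+CD8+ and 342, 332, 359, 384 and 392 CPM in splenic CD8. The iRTE and Artificial CD8 libraries overlapped, and the log2 fold change between them was 0.17 ± 0.089, short of the threshold (adjusted p = 0.131, edgeR). It was higher in iRTE than in CD4+CD8+ by 0.84 ± 0.11 and in Artificial CD8 than in CD4+CD8+ by 0.66 ± 0.11, with adjusted p values of 1.3e-05 and 0.000422. The fall relative to splenic CD8 was smaller than for Tap1 in value, at -0.49 ± 0.089 in iRTE, -0.66 ± 0.089 in Artificial CD8 and -1.33 ± 0.11 in CD4+CD8+. The difference between the falls of Tap1 and Tap2 was not tested.

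Tapbp encodes tapasin, which bridges class I molecules to the transporter. It had 1060.1, 991, 1131, 659 and 500.1 CPM in iRTE, 372, 367, 383, 410.3 and 347 CPM in Artificial CD8, 248, 235 and 257 CPM in CD4+CD8+ and 542, 546, 579.8, 620.3 and 611 CPM in splenic CD8. All iRTE libraries lay above all Artificial CD8 and CD4+CD8+ libraries, iRTE 1 to 4 also lay above all splenic CD8 libraries, and iRTE 5 lay below them. The log2 fold change of 1.21 ± 0.16 in iRTE over Artificial CD8 (2.31-fold, adjusted p = 1.1e-05, edgeR) was the largest of the 10 genes in that comparison, as was 1.82 ± 0.20 in iRTE over CD4+CD8+. Artificial CD8 exceeded CD4+CD8+ by 0.61 ± 0.19 (adjusted p = 0.037), a call lost on leaving out any CD4+CD8+ library or Artificial CD8 1, 2, 3 or 4 (adjusted p = 0.0575 to 0.116). Relative to splenic CD8, Tapbp was higher in iRTE by 0.58 ± 0.16 and lower in Artificial CD8 (-0.62 ± 0.16) and CD4+CD8+ (-1.23 ± 0.19). In the annotation used for lengths (GENCODE M21, GRCm38), 29.0% of the exon bases of Tapbp and 18.5% of those of Tap2 also belong to other genes, and the sources used here do not give the strand setting of the deposited counts, so reads of these neighbours cannot be told apart.

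The other helpers of class I loading did not move as 1 group. Relative to splenic CD8, the chaperones Calr, Canx and Pdia3 were higher in all 3 cultured groups, by 0.73 ± 0.16, 1.03 ± 0.14 and 0.86 ± 0.13 in iRTE. Tapbpl, a relative of tapasin that edits the peptides of class I molecules, was lower in all 3 cultured groups, at -0.26 ± 0.092 in iRTE, -1.28 ± 0.094 in Artificial CD8 and -1.07 ± 0.11 in CD4+CD8+. In iRTE over Artificial CD8, Tapbpl was higher by 1.02 ± 0.093, Calr and Canx were lower at -0.73 ± 0.16 and -0.43 ± 0.14, and Pdia3 did not pass at 0.043 ± 0.13 (edgeR). Calr in iRTE library 3 stood apart, at 526 CPM against 1024 to 1223 CPM in the other iRTE libraries.

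Psmb8, the inducible counterpart of the chymotrypsin-like subunit Psmb5, had 912, 839.8, 1150.4, 428 and 634 CPM in iRTE, 480.0, 486, 430.1, 490.4 and 519.9 CPM in Artificial CD8, 513, 357 and 357 CPM in CD4+CD8+ and 413, 405, 406, 427 and 463 CPM in splenic CD8. iRTE 1, 2, 3 and 5 exceeded every library of the other groups, and iRTE 4 lay below every Artificial CD8 library. Psmb8 was higher in iRTE than in Artificial CD8 by 0.72 ± 0.18 (adjusted p = 0.00428, edgeR), than in CD4+CD8+ by 0.95 ± 0.22 (adjusted p = 0.00343) and than in splenic CD8 by 0.91 ± 0.18 (adjusted p = 0.000359). Artificial CD8 and CD4+CD8+ did not pass against splenic CD8, with 0.19 ± 0.18 and -0.048 ± 0.21. Another annotated gene shares 14.7% of the exon bases of Psmb8.

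Psmb9, the inducible counterpart of Psmb6, the caspase-like subunit, had 172, 169, 213, 72.3 and 164 CPM in iRTE, 93.5, 91.9, 82.0, 97.3 and 102 CPM in Artificial CD8, 108, 86.0 and 78.6 CPM in CD4+CD8+ and 265, 229, 241, 269 and 272 CPM in splenic CD8. Every splenic CD8 library was above every cultured one, and iRTE 4 was the lowest of all 18 libraries. Psmb9 was higher in iRTE than in Artificial CD8 by 0.76 ± 0.19 (adjusted p = 0.00341, edgeR) and than in CD4+CD8+ by 0.80 ± 0.22 (adjusted p = 0.0124), the second call being lost without CD4+CD8+ library 2 (adjusted p = 0.0541) or 3 (adjusted p = 0.0703). It was lower than in splenic CD8 by 1.61-fold in iRTE, 2.73-fold in Artificial CD8 and 2.81-fold in CD4+CD8+. In iRTE, Psmb9 was lower than in splenic CD8 where Psmb8 and Psmb10 were higher.

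Psmb10, the inducible counterpart of the trypsin-like subunit Psmb7, had 389, 343, 529, 279 and 277 CPM in iRTE, 217, 235, 222, 228 and 238 CPM in Artificial CD8, 305, 192 and 199 CPM in CD4+CD8+ and 177, 149, 169.9, 189 and 197 CPM in splenic CD8. The iRTE libraries lay above all Artificial CD8 and splenic CD8 libraries and overlapped CD4+CD8+ library 1. Psmb10 was higher in iRTE by 0.67 ± 0.16 over Artificial CD8 (adjusted p = 0.00271, edgeR), 0.65 ± 0.19 over CD4+CD8+ (adjusted p = 0.017) and 1.04 ± 0.16 over splenic CD8 (adjusted p = 2.4e-05). The call over CD4+CD8+ was lost without CD4+CD8+ library 2 (adjusted p = 0.0981) or 3 (adjusted p = 0.0932). Artificial CD8 over splenic CD8 stood at 0.37 ± 0.16 with an adjusted p of 0.0525, and it passed without splenic CD8 library 4 (0.42, adjusted p = 0.0459) or 5 (0.44, adjusted p = 0.0383).

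The constitutive catalytic subunits gave 1 direction against splenic CD8. Psmb5, Psmb6 and Psmb7 were all higher than in splenic CD8 in each cultured group, by 1.42 ± 0.14, 0.68 ± 0.14 and 1.13 ± 0.14 in iRTE and by 1.32 ± 0.14, 0.80 ± 0.14 and 1.50 ± 0.14 in Artificial CD8 (edgeR). In iRTE over Artificial CD8, Psmb7 was lower at -0.37 ± 0.13 (adjusted p = 0.0344), and Psmb5 and Psmb6 did not pass at 0.10 ± 0.14 and -0.12 ± 0.14. Psmb7, for example, had 78.0 to 137 CPM in iRTE, 140.3 to 152 CPM in Artificial CD8, 119.6 to 173 CPM in CD4+CD8+ and 46.4 to 56.7 CPM in splenic CD8.

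The rest of the proteasome followed the constitutive subunits in direction against splenic CD8. All 11 other 20S core subunits were higher in iRTE, in Artificial CD8 and in CD4+CD8+ than in splenic CD8, with median log2 fold changes of 1.08, 0.88 and 1.04, where 29.2%, 30.3% and 28.9% of all genes were called higher. In iRTE the smallest changes were Psma3 at 0.53 ± 0.14 and Psma7 at 0.70 ± 0.15, and the largest were Psmb1 at 1.46 ± 0.16 and Psmb2 at 1.48 ± 0.15. Between the cultured groups none of the 11 passed by edgeR, DESeq2 or limma-voom. At an unadjusted p under 0.05, 2 of them were higher in iRTE than in Artificial CD8 and none differed in the other 2 comparisons. Their medians were 0.11 in iRTE over Artificial CD8, 0.10 in iRTE over CD4+CD8+ and -0.16 in Artificial CD8 over CD4+CD8+.

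Of 17 subunits of the 19S cap, which feeds ubiquitin-tagged proteins into the barrel, 17 were higher than in splenic CD8 in iRTE, 16 in Artificial CD8 and 16 in CD4+CD8+, against the same shares of all genes. The median log2 fold changes were 0.62, 0.82 and 0.94. In iRTE over Artificial CD8, 1 was higher (Psmd4 at 0.46 ± 0.11) and 3 were lower (Psmc1 at -0.47 ± 0.13, Psmc6 at -0.45 ± 0.12 and Psmd7 at -0.45 ± 0.11), with a median of -0.12, where 20.0% of all genes were called higher and 18.7% lower. The lower count was 7 by DESeq2 and 5 by limma-voom. The 19S genes at the ends of iRTE over splenic CD8 were Psmc5 at 0.35 ± 0.13 and Psmd12 at 0.35 ± 0.095, and Psmd7 at 1.14 ± 0.11 and Psmd8 at 1.19 ± 0.13. Of 5 proteasome assembly chaperones, 4 were higher in each cultured group than in splenic CD8, against the same shares, among them Pomp, a chaperone of core assembly, at 1.28 ± 0.17 in iRTE.

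**Figure D3:**
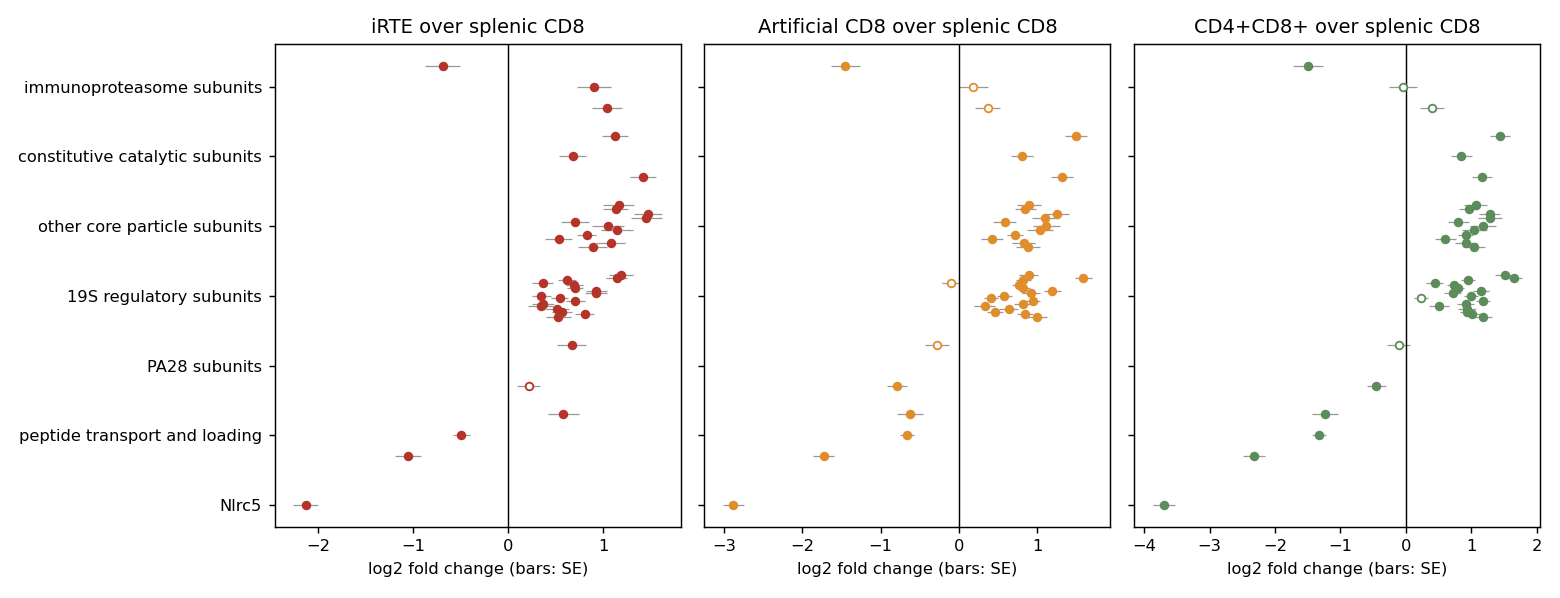
Fitted log2 fold change (points) with its SE (bars) of single genes in iRTE (left), Artificial CD8 (middle) and CD4+CD8+ (right) over splenic CD8, each panel on its own axis; filled points passed an adjusted p of 0.05, and genes run alphabetically upward within a list. Constitutive, other 20S core (core particle) and 19S subunits lie right of 0 apart from Psmd4 in Artificial CD8, while Psmb9, Tap1, Tap2 and Nlrc5 lie left of 0 in all panels.

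A ratio of counts within a library does not depend on how libraries are scaled. The log2 ratio of Psmb8 to Psmb5 was 1.84, 1.91, 1.84, 1.03 and 1.13 in iRTE, 0.92, 1.08, 0.98, 1.00 and 0.98 in Artificial CD8, 0.84, 1.08 and 0.85 in CD4+CD8+ and 2.11, 2.22, 2.12, 2.09 and 2.07 in splenic CD8. Splenic CD8 lay above all cultured libraries, iRTE 1 to 3 lay well above Artificial CD8, and iRTE 4 and 5 lay near it. Mean Psmb8 was 793 CPM in iRTE, 481 CPM in Artificial CD8 and 423 CPM in splenic CD8. Mean Psmb5 was 260, 242 and 97.2 CPM in the same order. The higher splenic ratio thus came with a lower Psmb5 and not with a higher Psmb8 than in these 2 groups. The mean difference was 0.56 ± 0.19 (SE) between iRTE and Artificial CD8 (exact two-sided permutation test, adjusted p = 0.0179 over the 9 ratio tests), -0.57 ± 0.19 between iRTE and splenic CD8 and -1.13 ± 0.04 between Artificial CD8 and splenic CD8 (adjusted p = 0.0102 each by the same exact test). With 5 libraries against 5 the smallest unadjusted p the test can give is 0.00794.

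The log2 ratio of Psmb9 to Psmb6 was -0.57, -0.58, -0.64, -1.35 and -0.79 in iRTE, -1.60, -1.67, -1.65, -1.49 and -1.64 in Artificial CD8, -1.85, -1.46 and -1.70 in CD4+CD8+ and 0.71, 0.60, 0.61, 0.68 and 0.62 in splenic CD8. As a ratio of counts, not corrected for gene length, it was above 0 in splenic CD8 alone, and iRTE 4 was the lowest iRTE library. Per kilobase of exon, Psmb9 stood below Psmb6 in splenic CD8 too, at 69.8 against 87.3 CPM. The difference was 0.82 ± 0.15 between iRTE and Artificial CD8, -1.43 ± 0.15 between iRTE and splenic CD8 (2.69-fold lower) and -2.25 ± 0.04 between Artificial CD8 and splenic CD8 (4.77-fold lower). The groups did not overlap in these comparisons, each with an adjusted p of 0.0102 (exact permutation).

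The log2 ratio of Psmb10 to Psmb7 was 1.51, 1.58, 1.97, 1.84 and 1.40 in iRTE, 0.56, 0.71, 0.66, 0.59 and 0.64 in Artificial CD8, 0.81, 0.68 and 0.61 in CD4+CD8+ and 1.71, 1.68, 1.77, 1.74 and 1.88 in splenic CD8. The iRTE and splenic CD8 libraries overlapped, with means of 1.66 ± 0.24 and 1.76 ± 0.08 and a difference of -0.10 ± 0.11 that did not pass (adjusted p = 0.389, exact permutation). The ratio in iRTE was 2.04-fold that in Artificial CD8, and the ratio in Artificial CD8 was 2.18-fold lower than in splenic CD8 (adjusted p = 0.0102 each, exact permutation). Mean Psmb10 was 363 CPM in iRTE, 228 CPM in Artificial CD8 and 176 CPM in splenic CD8. Mean Psmb7 was 114, 147 and 52.0 CPM in the same order, so the splenic ratio came with a lower Psmb7 and not with a higher Psmb10.

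**Figure D4:**
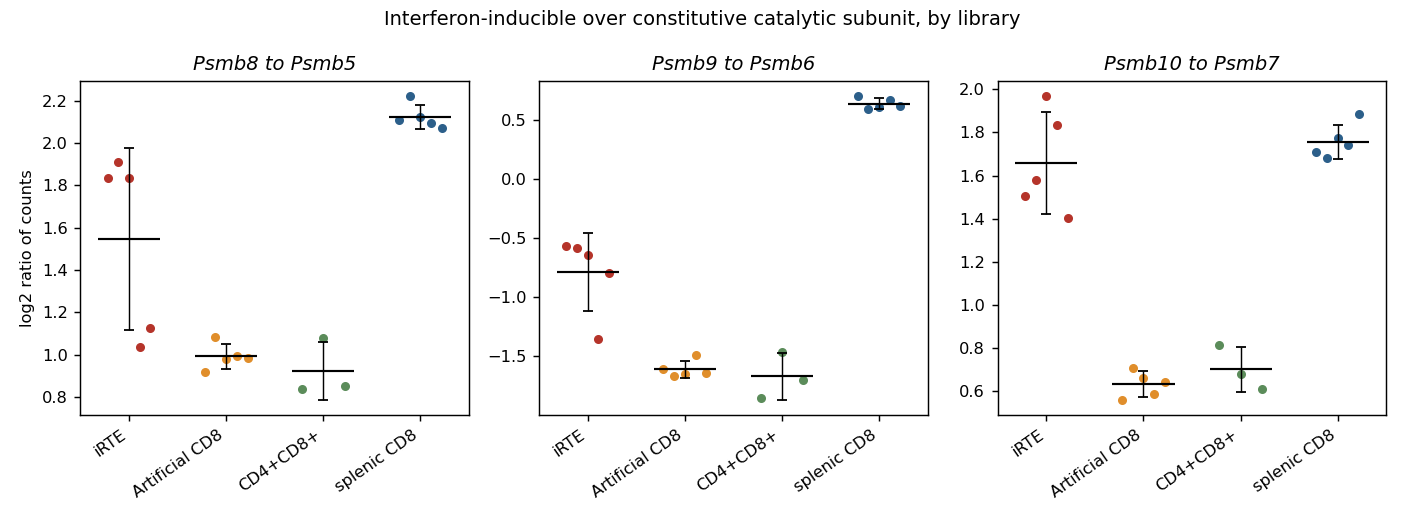
Log2 ratio of counts of each interferon-inducible catalytic subunit to the constitutive subunit of the same site, per library (points), with group mean (bar) and SD (whiskers). Splenic CD8 is the highest group for Psmb8 to Psmb5 and Psmb9 to Psmb6, and the iRTE libraries reach the splenic range for Psmb10 to Psmb7 only. Psmb5, Psmb6 and Psmb7 were lower in splenic CD8 than in each cultured group, which raises all splenic ratios.

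Psme1, the alpha subunit of PA28, had 517, 526, 605, 364 and 606 CPM in iRTE, 245, 259, 248, 272 and 276 CPM in Artificial CD8, 392, 285 and 311 CPM in CD4+CD8+ and 469, 397, 431, 489 and 464 CPM in splenic CD8. All Artificial CD8 libraries lay below all libraries of every other group. It was higher in iRTE than in Artificial CD8 by 1.01 ± 0.12 (2.01-fold, adjusted p = 3.8e-06, edgeR) and than in CD4+CD8+ by 0.67 ± 0.15 (adjusted p = 0.00231). Artificial CD8 against CD4+CD8+ stood at -0.34 ± 0.14 and did not pass (adjusted p = 0.114). Psme1 was lower than in splenic CD8 by 1.73-fold in Artificial CD8 and 1.37-fold in CD4+CD8+, the second call being lost without CD4+CD8+ library 2 (adjusted p = 0.0834) or 3 (adjusted p = 0.0568). In iRTE over splenic CD8 it did not pass at 0.22 ± 0.12 (adjusted p = 0.136), but did without iRTE library 4 (0.33, adjusted p = 0.00739).

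Psme2, the beta subunit of PA28, had 674, 618, 795, 388 and 653 CPM in iRTE, 313, 317, 302, 341 and 344 CPM in Artificial CD8, 458, 315 and 316 CPM in CD4+CD8+ and 390.5, 341, 362, 429.7 and 441 CPM in splenic CD8. Apart from iRTE 4, every iRTE library lay above every other library. Psme2 was higher in iRTE by 0.95 ± 0.15 over Artificial CD8 (adjusted p = 6.6e-05, edgeR), 0.79 ± 0.18 over CD4+CD8+ (adjusted p = 0.00331) and 0.67 ± 0.15 over splenic CD8 (adjusted p = 0.000898). The comparisons without iRTE did not pass. Psme2 has a near copy, Psme2b, listed at 25.5 to 55.8 CPM in iRTE, 16.6 to 20.3 CPM in Artificial CD8, 19.8 to 25.6 CPM in CD4+CD8+ and 68.5 to 78.1 CPM in splenic CD8, and how the counting divided reads between them is not stated in those sources.

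The caps that are not known as interferon-inducible were read from the same fit. Psme3, which forms the nuclear PA28-gamma cap, was higher than in splenic CD8 by 0.83 ± 0.096 in iRTE and 0.89 ± 0.096 in Artificial CD8, and did not pass between these 2 groups at -0.065 ± 0.095. Psme4, the PA200 cap, was lower in iRTE than in Artificial CD8 by 2.34-fold (-1.23 ± 0.15, adjusted p = 4.6e-06, edgeR) without overlap of the libraries.

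Erap1, the aminopeptidase that trims peptides in the endoplasmic reticulum, had 409.5, 389.9, 290.4, 348 and 166 CPM in iRTE, 271, 239, 286, 259 and 223 CPM in Artificial CD8, 187, 227 and 235 CPM in CD4+CD8+ and 231, 238, 239, 225 and 190.5 CPM in splenic CD8. iRTE 5 was the lowest of all 18 libraries, the other 4 iRTE libraries were the highest, and the other groups overlapped. In iRTE over Artificial CD8 the log2 fold change of 0.33 ± 0.17 did not pass (adjusted p = 0.141, edgeR), and without iRTE library 5 it did (0.49, adjusted p = 0.00165). It was higher in iRTE than in CD4+CD8+ by 0.57 ± 0.20 (adjusted p = 0.0481), a call lost without iRTE library 1, 2 or 4 or any CD4+CD8+ library (adjusted p = 0.0604 to 0.168). It was also higher than in splenic CD8 by 0.51 ± 0.17 (adjusted p = 0.0157), lost without iRTE library 1 (adjusted p = 0.0546). With libraries scaled by their totals alone, both calls were lost (0.45, adjusted p = 0.0966 and 0.32, adjusted p = 0.0982). The call over CD4+CD8+ was also lost by limma-voom (adjusted p = 0.0929) and with no low-count filter (edgeR, adjusted p = 0.0701). Cast, the calpain inhibitor gene next to it, shares 11.5% of the exon bases of Erap1.

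Of 6 other peptidases that destroy or shorten peptides, 4 were higher than in splenic CD8 in each cultured group, where 29.2% of all genes were called higher in iRTE, 30.3% in Artificial CD8 and 28.9% in CD4+CD8+. In iRTE the count was 3 by limma-voom and 5 at an unadjusted p under 0.05 (edgeR). Lap3, a leucine aminopeptidase, stood at 1.46 ± 0.14 in iRTE, 1.66 ± 0.14 in Artificial CD8 and 1.41 ± 0.16 in CD4+CD8+. Blmh, bleomycin hydrolase, stood at 0.96 ± 0.12, 1.19 ± 0.12 and 1.23 ± 0.14 in the same order. In iRTE over Artificial CD8 none of the 6 was higher (edgeR; 1 at an unadjusted p under 0.05, and none by DESeq2 or limma-voom) and 1 was lower, Thop1, an oligopeptidase, at -0.55 ± 0.18 (adjusted p = 0.0204).

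Of 9 factors of the complexes on class I promoters, 1 was higher and 2 were lower in iRTE than in Artificial CD8, with a median of -0.07; over all genes, 20.0% were called higher and 18.7% lower. The higher one was Rfxap, a subunit of the RFX complex, at 0.44 ± 0.099, and the lower ones were Creb1 at -0.68 ± 0.19 and Nfyb, a subunit that binds CCAAT, at -0.44 ± 0.11. Rfx5 did not pass at -0.48 ± 0.20 (edgeR). Of 10 interferon receptor, STAT and IRF genes, 8 were higher and 1 was lower in iRTE than in Artificial CD8, with a median of 0.70, against the same 20.0% and 18.7% of all genes. Irf1, an interferon-induced factor, had 289, 317, 353, 215 and 708 CPM in iRTE, 165, 170.3, 175, 186 and 185 CPM in Artificial CD8, 194, 172 and 161 CPM in CD4+CD8+ and 605, 572, 611, 595 and 593 CPM in splenic CD8, with iRTE 5 above every other library. Ifngr1, a chain of the interferon-gamma receptor, was higher in iRTE, by 0.75 ± 0.11 over Artificial CD8 and 2.30 ± 0.11 over splenic CD8.

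Counts per kilobase of exon allow levels of different genes to be set side by side. In iRTE, Psme2 had 355 CPM per kilobase, Tapbp 239, Psme1 237, Psmb8 234 and Psmb10 213, whereas Tap2 had 68.1 and Nlrc5 had 14.7 CPM per kilobase. In splenic CD8, Psme2 was again highest at 223 CPM per kilobase, Nlrc5 had 64.4 and Erap1 was lowest at 30.9. Per kilobase, Tap1 and Tap2 stood at 44.0 and 68.1 CPM in iRTE, at 27.6 and 60.3 in Artificial CD8, at 18.3 and 38.1 in CD4+CD8+ and at 91.4 and 95.6 in splenic CD8. The lengths are those of all annotated exons merged, including exons of rare transcripts.

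The iRTE libraries varied most among themselves. The median coefficient of variation over the 10 genes was 27.1% in iRTE, 5.90% in Artificial CD8, 15.4% in CD4+CD8+ and 7.75% in splenic CD8. iRTE 3 was the highest iRTE library for 7 of the 10 genes, iRTE 4 the lowest for 6 and iRTE 5 the lowest for the other 4. iRTE 4 was also the lowest iRTE library for 11 of 11 other 20S core subunits, which summed to 2691 CPM there and to 4058 to 5367 CPM in the other iRTE libraries. Among CD4+CD8+ libraries, library 1 was the highest for 6 of the 10 genes and for 11 of 11 other 20S core subunits. The part of these library differences in the results was not tested.

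The library descriptions call iRTE 1 to 3 mature and iRTE 4 and 5 pmel iRTE, without saying what differs. Those of CD4+CD8+ read immature, and those of splenic CD8 read pmel naive T. Total counts ran from 11691286 to 12768601 in iRTE 1 to 3 and were 16533373 and 15654546 in iRTE 4 and 5. The part of naming and depth in the comparisons was not tested. With iRTE 1 to 3 as the only iRTE libraries, all 10 genes were higher than in Artificial CD8 (48.0% of all genes called in either direction) and than in CD4+CD8+ (35.6%), and 6 were higher and 4 lower than in splenic CD8 (65.4%). With iRTE 4 and 5 alone, 4 of the 10 were higher and none lower than in Artificial CD8 (33.9% of all genes called in either direction). Against CD4+CD8+, 5 were higher and none lower (23.6%), and against splenic CD8, 1 was higher and 4 lower (44.3%). Taken in either direction, the counts against Artificial CD8 and splenic CD8 were near those shares.

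The 4 genes higher than in Artificial CD8 in both fits were Nlrc5, Tapbp, Psme1 and Psme2. Nlrc5 stood at 0.79 ± 0.10 with iRTE 1 to 3 and 0.68 ± 0.17 with iRTE 4 and 5, and Psme1 at 1.08 ± 0.10 and 0.89 ± 0.15. For both genes iRTE 4 was the lowest and iRTE 5 the highest iRTE library (85.7 and 154 CPM for Nlrc5, 364 and 606 CPM for Psme1). Tapbp stood at 1.50 ± 0.08 and 0.62 ± 0.11. Psmb8 stood at 1.01 ± 0.12 with iRTE 1 to 3 and, short of the threshold, at 0.13 ± 0.15 with iRTE 4 and 5 (adjusted p = 0.527, edgeR), and Tap1 at 0.92 ± 0.07 and 0.20 ± 0.10 (adjusted p = 0.113). Against splenic CD8, Tapbp was higher by 0.87 ± 0.08 with iRTE 1 to 3 and stood at 0.01 ± 0.11 with iRTE 4 and 5, whereas Psmb10 was higher in both fits, by 1.26 ± 0.14 and 0.66 ± 0.14. The fall of Nlrc5 against splenic CD8 was -2.09 ± 0.11 and -2.19 ± 0.19.

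**Figure D5:**
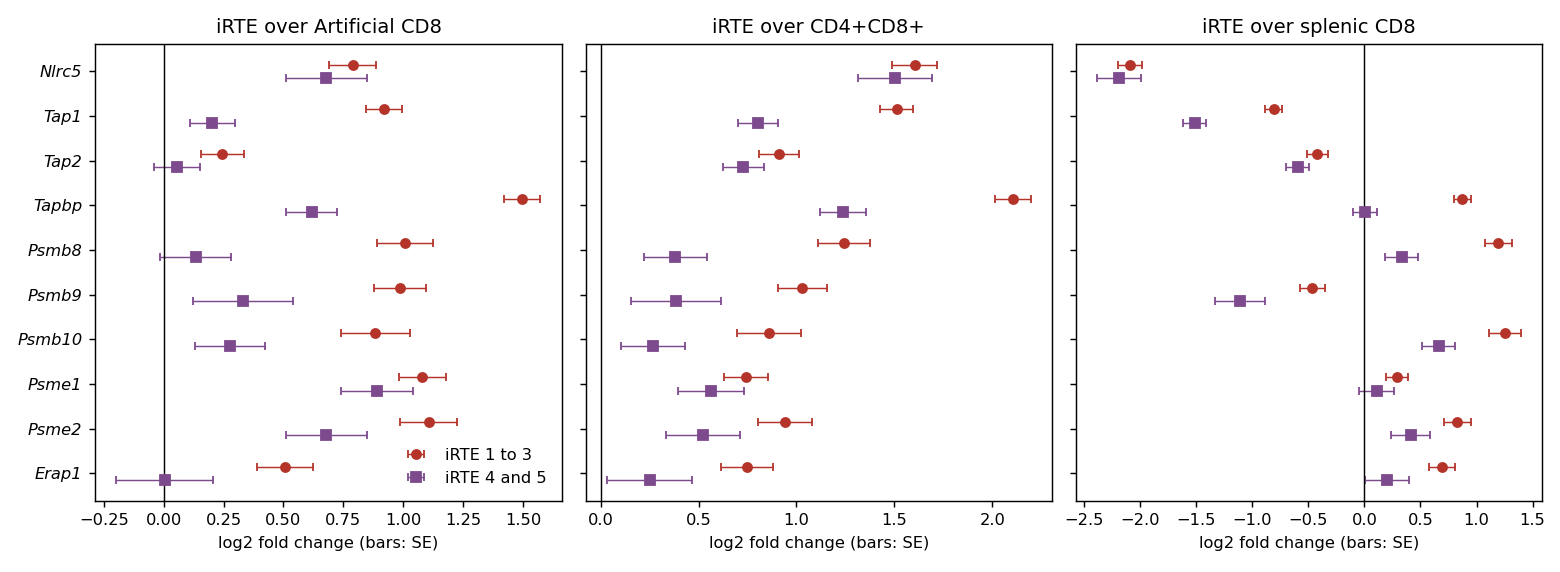
Fitted log2 fold change with SE of the 10 genes in iRTE over Artificial CD8, CD4+CD8+ and splenic CD8, with iRTE libraries 1 to 3 (circles) or 4 and 5 (squares) as the only iRTE libraries; each panel has its own axis. The Nlrc5 values lie close together in all panels, although iRTE 4 and 5 were its lowest and highest iRTE libraries, and the Tapbp and Psmb8 values lie apart.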

How the data were processed

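The count values, whole numbers per gene symbol, were deposited by the authors and were made with STAR 2.4.2 and Subread on mm9, per the submitters' processing notes. Neither the annotation nor the strand setting is stated in those notes. A deposited table of log2 values, made with edgeR per those notes, equals TMM log2 CPM with a prior count of 2 (largest difference 5.33e-14 over 17765 genes) and served only for that check.

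Replicates differed by more than counting error (lowest chi-square per degree of freedom 4.67). All 18 libraries entered an edgeR 4.0.16 quasi-likelihood fit (R 4.3.3; default low-count filter, 13922 genes; TMM; a coefficient per group; robust dispersions), with Benjamini-Hochberg adjustment over all genes and a threshold of 0.05. The SE of a log2 fold change was its size divided by the square root of the F statistic. Ratios used log2 counts with 0.5 added and exact permutation of libraries (scipy 1.17.1), adjusted over 9 tests. Floors of 3 counts and these depths cover counting error only. The pipeline was tested on simulated data. Alternatives were RLE scaling, library totals, DESeq2 1.42.0, limma-voom 3.58.1, other filters, the groups compared alone, a replicate block, left-out libraries and subsets of iRTE.

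The 10 genes and all gene lists were chosen with earlier results of these data known. Genes were named if they belonged to the 10, to a list of at most 10 genes, to the 2 ends of a longer list, or to the 5 profiles nearest Nlrc5. Exon lengths came from GENCODE M21 and promoter windows from RefSeq, both on GRCm38, and no coordinate was carried between builds.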

Additional observations from a re-analysis of the deposited data

Results flagged for a closer look

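A library was looked at again when its distance to the nearest of the other 4 libraries of its group, divided by the whole range, exceeded 0.71, Dixon's 95% critical value for 5 samples. Of 198 groups so tested, 11 passed, and chance alone passes about 1 in 20. Among the pathway genes and ratios, the log2 ratio of Psmb9 to Psmb6 was -1.35 in iRTE library 4, against -0.79 to -0.57 in the other iRTE libraries, and Erap1 was 190.5 CPM in splenic CD8 library 5, against 225 to 239 CPM in the others.

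The other libraries that stood apart concern genes of the lists. In iRTE, Psmc1 was 258 CPM in library 5 (158.5 to 174 in the others), Irf1 was 708 CPM in library 5 (215 to 353), Calr was 526 CPM in library 3 (1024 to 1223), H2-D1 was 2823 CPM in library 4 (3556 to 3746) and Rfxap was 38.7 CPM in library 2 (47.5 to 48.9). In splenic CD8, Psmc1 was 111 CPM and Psmg1 was 26.9 CPM in library 2 (127 to 134 and 32.3 to 33.7), Pdia3 was 843 CPM in library 5 (739 to 755) and Irf2 was 89.2 CPM in library 4 (77.8 to 80.7). No explanation of these values was tested.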

How the results depend on the processing

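For counts of called genes and for ratios, 7 counts moved by over 1.5 times and 5 ratios no longer passed, and the other 207 values were counts within 1.5 times of the reported one, in which single genes could still cross the threshold, or ratios that kept their direction and side. Over left-out libraries, the number of the 10 genes called ranged from 8 to 9 for iRTE against Artificial CD8, 7 to 10 for iRTE against CD4+CD8+, 2 to 4 for Artificial CD8 against CD4+CD8+, 8 to 10 for iRTE against splenic CD8, 6 to 7 for Artificial CD8 against splenic CD8 and 5 to 6 for CD4+CD8+ against splenic CD8. Of the 13674 to 14640 genes tested in these fits, those called in either direction were counted in the same order. They ran from 4709 to 6010, 2408 to 4089, 1316 to 1773, 7479 to 8486, 7873 to 8062 and 6931 to 7413. With only the 2 groups compared in the fit, 4 of the 10 genes were called for iRTE against CD4+CD8+ and 10 for Artificial CD8 against splenic CD8. With the iRTE group reduced to libraries 4 and 5, 4 were called against Artificial CD8, 5 against CD4+CD8+ and 5 against splenic CD8. In that subset the difference in log2 ratio was 0.087 for Psmb8 to Psmb5 against Artificial CD8 and -1.04 against splenic CD8, 0.54 for Psmb9 to Psmb6 against Artificial CD8 and -1.71 against splenic CD8, and 0.99 for Psmb10 to Psmb7 against Artificial CD8. None of these 5 passed, and 2 libraries against 5 cannot pass in this two-sided exact test.

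For single genes among the 10, 1005 values kept direction and side, 19 newly passed, 45 no longer passed and 11 changed sign, all 11 short of the threshold. In Artificial CD8 over CD4+CD8+, Psmb10 stood at 0.010 with limma-voom, 0.00083 with no low-count filter, 0.013 with a 10 CPM filter and 0.034 with the replicate block. Over left-out libraries it ranged from -0.14 to 0.22, Psme2 from -0.26 to 0.034 and Psmb9 from -0.047 to 0.18. In CD4+CD8+ over splenic CD8, Psmb8 ranged from -0.24 to 0.049 and Erap1 from -0.11 to 0.045. The cause was not tested. The number of 19S genes lower in iRTE than in Artificial CD8 was 3 with edgeR, 7 with DESeq2 and 5 with limma-voom.

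The replicate block left the counts of called genes at 8, 10, 4, 9, 6 and 6 in the order of the comparisons above. Deviations of same-numbered libraries correlated from -0.44 to 0.39. All 5 correlations were positive in Artificial CD8 against splenic CD8 (0.077 to 0.37), 2 of them under 0.1, and in no comparison was every pair over 0.1, so the numbers were not treated as pairs. Scaling by library totals alone moved the median of all genes to -0.23 for iRTE against splenic CD8 (-0.05 with TMM) and to -0.11 for iRTE against Artificial CD8 (0.01 with TMM). The splenic libraries differ from the cultured ones in source, and tissue and culture cannot be told apart. With 3 CD4+CD8+ libraries, calls against that group rest on the spread shared with the others.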
